A study of Mus musculus with 12 samples.

Results

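The genes described here are 10 members of the Bcl2 family, which sets the threshold for the mitochondrial route of apoptosis. They are the anti-apoptotic Bcl2, Bcl2l1 (encoding BCL-XL) and Mcl1, the BH3-only genes Bcl2l11 (BIM), Bbc3 (PUMA), Pmaip1 (NOXA), Bid and Bad, and the effectors Bax and Bak1. They were taken by symbol from a table of 23284 gene symbols from 12 RNA sequencing libraries of 8946, a mouse T cell leukemia line, and all 10 had a row. The study asked how the coactivator Zmiz1 and the receptor Notch1 act together in this leukemia. All cells carried a pair of retroviral vectors and were sorted for the GFP and NGFR markers of both, so the controls were transduced and sorted too. The Notch1+Zmiz1 group received the Notch1 L1601P mutant with GFP and Zmiz1 with NGFR. The Notch1 group received L1601P with GFP and the empty NGFR vector, the Zmiz1 group received the empty MigR1 vector and Zmiz1 with NGFR, and the control group received both empty vectors. Each group had 3 libraries, numbered 1 to 3 in the labels. No label says whether these came from separate transductions, so p-values measure the spread between these libraries, which may be technical. The expression was forced from vectors in 1 cell line, and in bulk RNA fewer cells of a type and less RNA per cell cannot be told apart.

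BCL-XL, MCL1 and BCL2 hold cells alive by binding the BH3-only proteins and the effectors BAX and BAK. BH3-only proteins carry death signals: BIM, PUMA and NOXA are largely controlled through transcription, whereas BID is cut by caspase-8 downstream of death receptors and BAD is controlled by phosphorylation. Freed BAX and BAK open the outer mitochondrial membrane, which releases cytochrome c and starts the caspase cascade. In thymocytes MCL1, BCL2 and, at the CD4+CD8+ stage, BCL-XL are known as survival factors, and BIM and PUMA as main mediators of cell death.

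Values are FPKM, fragment counts normalised to transcript length and to the mapped fragments of a library, so that levels of different genes can be set side by side. The transduced genes followed the titles of the libraries. Zmiz1 averaged 49.3 ± 1.66 FPKM in Notch1+Zmiz1 libraries, 0.212 ± 0.0153 in Notch1 libraries, 70.8 ± 3.39 in Zmiz1 libraries and 0.176 ± 0.00489 in control libraries (SD, n = 3 each). Notch1 averaged 35.6 ± 1.93 FPKM in Notch1+Zmiz1 libraries, 32.1 ± 10.1 in Notch1 libraries, 2.1 ± 0.218 in Zmiz1 libraries and 1.89 ± 0.0863 in control libraries. Ngfr averaged 5.64 ± 0.0183 FPKM in Notch1+Zmiz1 libraries, 72.9 ± 10.1 in Notch1 libraries, 7.43 ± 0.248 in Zmiz1 libraries and 85.2 ± 3.25 in control libraries, so it was high in both groups with the empty NGFR vector, although cells of all groups were sorted for NGFR. The cell line label names the vectors of the Notch1 and the Zmiz1 libraries the other way round. The groups here follow the titles and column headers, and under the other naming the Notch1 and Zmiz1 groups would change places. All 11 T cell markers were present. Their summed level ran between 4932 and 5171 FPKM in Notch1+Zmiz1 libraries, 5361 and 6089 in Notch1, 4488 and 4742 in Zmiz1 and 5036 and 5225 in control libraries, so it was above all other groups in Notch1 and below all others in Zmiz1 libraries. By contrast, no B cell, erythroid, fibroblast or NK cell marker reached a mean of 1 FPKM. Of 6 myeloid markers Itgam alone did, at 59.9 FPKM in Notch1+Zmiz1, 55.7 in Notch1, 96.2 in Zmiz1 and 99.5 in control libraries, while Lyz2, Csf1r, Cd14 and Elane stayed at or near 0 in all. Read totals are unknown. The steps between low FPKM values were shared within the 4 libraries numbered 1 (29.1% to 39.2% of genes compared) and within the 8 others (35.6% to 51.3%), but less between the sets (6.4% to 9.9%), so the libraries numbered 1 stand apart. Among the 8 others, Zmiz1 library 2 had the lowest depth, 0.763 of that of control library 2.

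The family was carried at the transcript level by Mcl1 and Bcl2l1 on the survival side and by Bax and Bak1 on the effector side. Over the 12 libraries Mcl1 averaged 146.3 FPKM and Bcl2l1 140.7 FPKM, and Mcl1 was above Bcl2l1 in 7 of 12 libraries, so their order was not fixed. Bax followed with 85.4 FPKM and Bak1 with 50.9 FPKM, each separated from its neighbours in all 12 libraries. The BH3-only genes Bbc3 (27.9 FPKM), Bcl2l11 (25.4 FPKM) and Bid (24.6 FPKM) could not be ordered, as their ranges overlapped and Bcl2l11 exceeded Bid in 5 of 12 libraries. Bad averaged 15.4 FPKM. Bcl2, at 0.263 FPKM, and Pmaip1, at 0.0137 FPKM, lay below the mean of 1 FPKM that the other 8 members passed.

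The anti-apoptotic transcripts were thus almost wholly those of Bcl2l1 and Mcl1. Bcl2l1 made up 50.9% ± 2.69 of the summed FPKM of Bcl2, Bcl2l1 and Mcl1 in Notch1+Zmiz1 libraries, 50.0% ± 3.25 in Notch1 libraries, 48.4% ± 2.75 in Zmiz1 libraries and 47.1% ± 2.52 in control libraries. Bcl2 contributed between 0.0603% and 0.124% in any library. Bcl2, on chromosome 1 (106538178 to 106714274, minus strand), had 0.342, 0.290 and 0.293 FPKM in Notch1+Zmiz1 libraries and 0.331, 0.243 and 0.251 FPKM in Notch1 libraries. It had 0.216, 0.200 and 0.303 FPKM in Zmiz1 libraries and 0.213, 0.265 and 0.208 FPKM in control libraries. The 3 Notch1+Zmiz1 values were above all 3 control values, as for 14.1% of genes without a filter, at levels far below those of the other anti-apoptotic genes. The log2 change was 0.09 (95% interval 0.0069 to 0.17) and was not called by limma (adjusted p = 0.276), and on this scale the change of so low a gene is understated. Pmaip1, on chromosome 18 (66458533 to 66465565, plus strand), was listed at 0 in Notch1+Zmiz1 library 2, in Notch1 libraries 2 and 3 and in Zmiz1 libraries 2 and 3, and its highest value was 0.0591 FPKM in Notch1 library 1. No fold change is given for it.

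**Figure D1:**
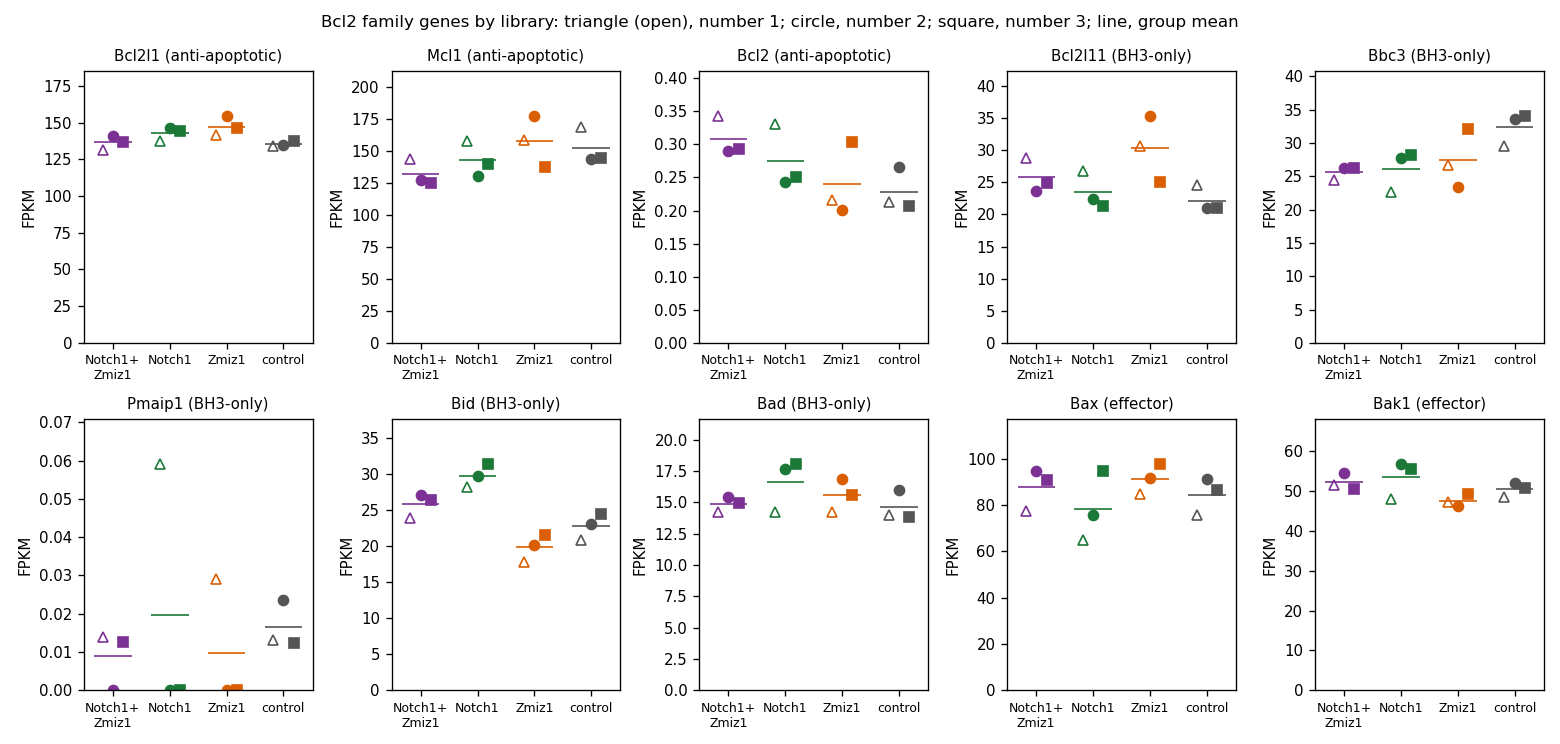
FPKM (y axis, from 0) of each of the 10 genes in the 12 libraries, by group; symbols give the library number and lines the group mean. Bid lies between 28.3 and 31.5 FPKM in the Notch1 libraries, above every library of the other 3 groups.

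Differences were tested on log2(FPKM + 1) with limma, in 1 model of the 4 groups over the 10152 genes whose mean reached 1 FPKM, and p-values were adjusted by the Benjamini-Hochberg method over all these genes. A gene is called, or said to have risen or fallen, where the two-sided adjusted p was under 0.05. Bcl2 and Pmaip1 were tested in the same model without the filter, and neither was called. Without the filter the model called 4.40% of genes in Notch1+Zmiz1, 3.56% in Notch1 and 1.64% in Zmiz1 against control, 2.55% in Notch1+Zmiz1 and 7.36% in Notch1 against Zmiz1, 1.15% in Notch1+Zmiz1 against Notch1 and 0.107% in the interaction. Of the 10 members Bid alone was called. It rose in Notch1 against control libraries, in Notch1+Zmiz1 against Zmiz1 libraries and in Notch1 against Zmiz1 libraries, which is 1 of 10 members in each of these comparisons. The percentages of all tested genes called were 5.49%, 3.86% and 10.9%. Neither Notch1+Zmiz1 against control (6.46% of genes called), Zmiz1 against control (2.11%), Notch1+Zmiz1 against Notch1 (1.51%) nor the interaction of both vectors (0.0690%) called any member. In these 4, limma gave an unadjusted p under 0.05 for 1, 3, 1 and 1 of the 8 members above the filter. Of the 10152 tested genes 1941, 1300, 914 and 332 had such a p. Bcl2, tested without the filter, had such a p in Notch1+Zmiz1 against control (0.0366 in limma). In the 3 comparisons that called Bid, 2, 2 and 3 of the 8 members had such a p, beside 1909, 1604 and 2633 of the 10152 tested genes. The median log2 change of the 8 members above the filter was 0.04 in Notch1+Zmiz1 against control and 0.07 in Notch1 against control, where all tested genes had 0.02 in both. It was 0.06 in Zmiz1 against control (all tested genes 0.002) and -0.05 in Notch1+Zmiz1 against Notch1 (-0.0003). Against Zmiz1 libraries it was below 0, at -0.07 in Notch1+Zmiz1 (all tested genes 0.02) and -0.05 in Notch1 (0.03).

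Bid lies on chromosome 6 (120891930 to 120916853, minus strand), and its product is inactive until cut to tBID, which then activates BAX and BAK. It had 28.3, 29.8 and 31.5 FPKM in Notch1 libraries, against 20.9, 23.1 and 24.5 FPKM in control libraries. In Notch1+Zmiz1 libraries it had 23.9, 27.1 and 26.4 FPKM, against 17.8, 20.2 and 21.6 FPKM in Zmiz1 libraries. The Notch1 libraries did not overlap any other group, and the Notch1+Zmiz1 libraries lay above the Zmiz1 libraries but overlapped the control libraries. Groups failed to overlap in the same direction for 15.8% of tested genes in Notch1 against control, 13.5% in Notch1+Zmiz1 against Zmiz1 and 14.5% in Notch1 against Zmiz1. The Notch1+Zmiz1 values were all below the Notch1 values, as for 7.81% of tested genes.

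Bid rose with Notch1 on both backgrounds. The log2 fold change was 0.37 (SE 0.0852, 95% interval 0.19 to 0.56, adjusted p = 0.03 in limma) in Notch1 against control, with means of 29.8 ± 1.58 and 22.8 ± 1.85 FPKM (SD, n = 3 each). It was 0.37 on the Zmiz1 background too (95% interval 0.18 to 0.55, adjusted p = 0.0412), with means of 25.8 ± 1.67 FPKM in Notch1+Zmiz1 and 19.9 ± 1.93 FPKM in Zmiz1 libraries. The difference between these changes, the interaction, was -0.01 on the log2 scale with a 95% interval of -0.27 to 0.26 (adjusted p = 0.999), so effects of that size in either direction were within reach of the data. Both calls were near the threshold. That of Notch1 against control was lost in 5 of the 12 fits that left out 1 library: without control 1 (adjusted p = 0.118), control 2 (0.0977), Notch1 2 (0.0797), Notch1 3 (0.102) or Notch1+Zmiz1 3 (0.0532). That of Notch1+Zmiz1 against Zmiz1 was lost in 9 of 12, without control 2 (0.0733), control 3 (0.0537), Zmiz1 1 (0.111), Zmiz1 2 (0.0656), Notch1 1 (0.0503), Notch1 2 (0.0649), or Notch1+Zmiz1 1 (0.0531), 2 (0.181) or 3 (0.152). Without the 4 libraries numbered 1 the log2 changes were 0.35 and 0.34, with adjusted p of 0.0763 and 0.0973. With the libraries numbered 1 as a term of the model the adjusted p was 0.000915 in Notch1 against control and 0.00139 in Notch1+Zmiz1 against Zmiz1.

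The widest gap in Bid was between the single vectors, 29.8 ± 1.58 FPKM in Notch1 libraries and 19.9 ± 1.93 FPKM in Zmiz1 libraries. Its log2 fold change was 0.57 (95% interval 0.38 to 0.75, adjusted p = 0.00181 in limma), and this call held in all 21 alternatives, over which the adjusted p ran between 4.27e-05 and 0.0369. The Zmiz1 groups sat lower than their partners without Zmiz1, at uncalled sizes: the log2 change was -0.19 in Zmiz1 against control (95% interval -0.38 to -0.0045, adjusted p = 0.374) and -0.20 in Notch1+Zmiz1 against Notch1 (-0.39 to -0.01, adjusted p = 0.488). Within each library number the Zmiz1 library was below the control library, in 3 of 3 numbers, and how many of all genes did so was not counted. The Notch1+Zmiz1 values all lay below the Notch1 values, so matching by number adds nothing there. Notch1+Zmiz1 against control gave 0.17 (-0.02 to 0.36, adjusted p = 0.311). With the libraries numbered 1 as a term, Bid was called lower in Zmiz1 against control (adjusted p = 0.0487) and higher in Notch1+Zmiz1 against control (0.038), and without these 4 libraries neither was called (0.423 and 0.337). Of the summed FPKM of the BH3-only members Bid made up 28% ± 1.64 in Notch1+Zmiz1 libraries, 31% ± 0.672 in Notch1, 21.3% ± 1.49 in Zmiz1 and 24.8% ± 1.44 in control libraries. Where Bid was called higher, the myeloid marker Itgam was lower and the summed T cell markers were higher in the same groups, and the part of either in the result was not tested.

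**Figure D2:**
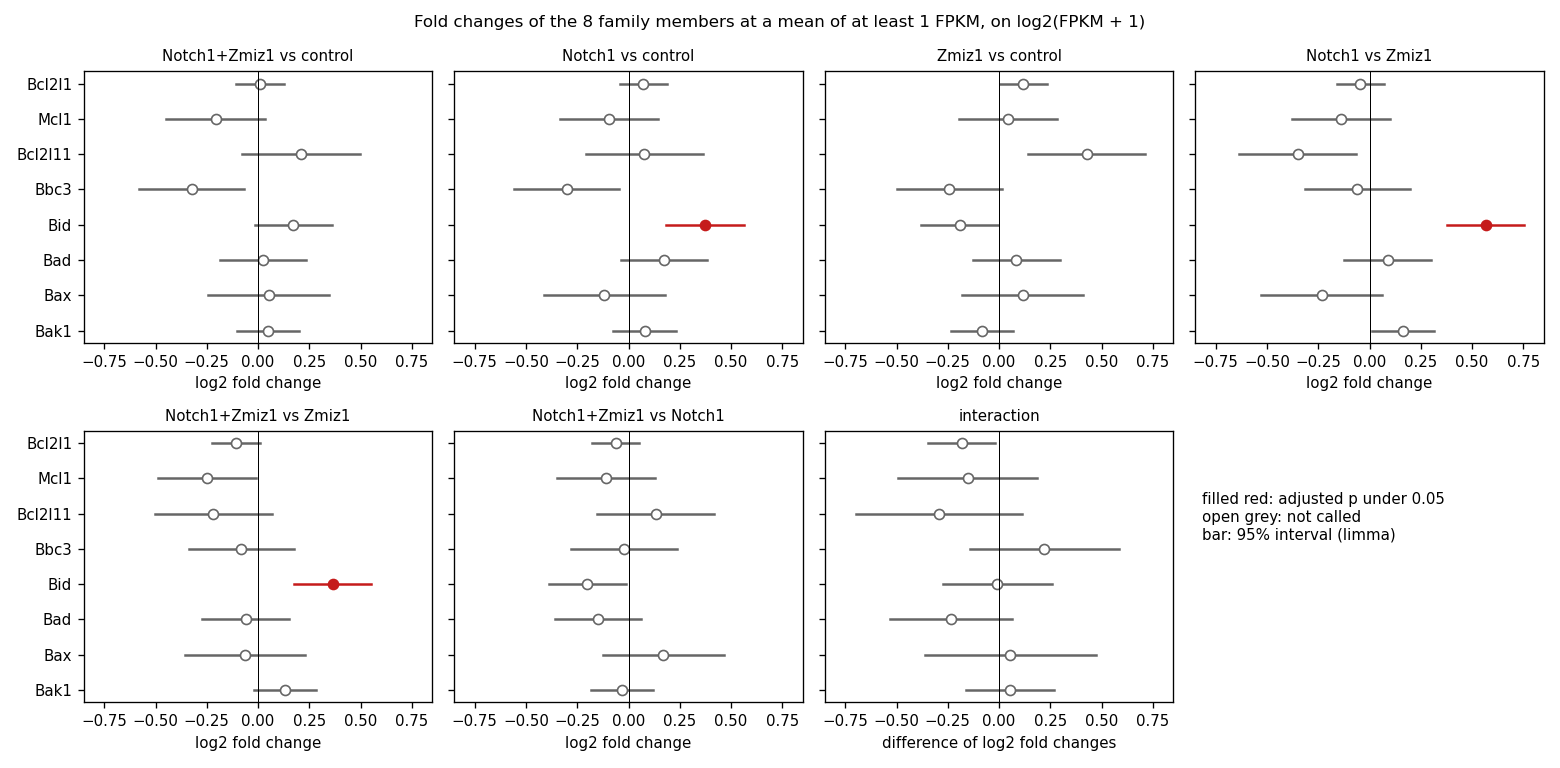
Log2 fold change on log2(FPKM + 1) (x axis) with its 95% interval from limma for the 8 genes at a mean of at least 1 FPKM, in 6 comparisons and, as a difference of log2 fold changes, the interaction. Filled red points, all of them Bid, are the 3 calls at an adjusted p under 0.05.

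The bases before the start of Bid are shown because its transcript is the one that was called, with those of Bcl2l11 and Bax for comparison. They come from RefSeq (GRCm38.p6), cut where the GENCODE gene begins, and are written 5′ to 3′ on the strand of the gene, with capitals for the motifs found:
Bid, chr6:120916854-120917074, minus strand: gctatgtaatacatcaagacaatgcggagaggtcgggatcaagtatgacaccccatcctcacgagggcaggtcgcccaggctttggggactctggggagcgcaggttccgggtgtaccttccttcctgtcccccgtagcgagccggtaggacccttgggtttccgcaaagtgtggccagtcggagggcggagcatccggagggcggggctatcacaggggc
Bcl2l11, chr2:128125788-128126037, plus strand: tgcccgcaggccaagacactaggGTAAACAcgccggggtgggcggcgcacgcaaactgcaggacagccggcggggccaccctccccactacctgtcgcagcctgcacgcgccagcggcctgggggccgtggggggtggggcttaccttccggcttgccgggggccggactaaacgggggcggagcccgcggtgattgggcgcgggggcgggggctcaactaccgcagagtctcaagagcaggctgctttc
Bax, chr7:45466899-45467148, minus strand: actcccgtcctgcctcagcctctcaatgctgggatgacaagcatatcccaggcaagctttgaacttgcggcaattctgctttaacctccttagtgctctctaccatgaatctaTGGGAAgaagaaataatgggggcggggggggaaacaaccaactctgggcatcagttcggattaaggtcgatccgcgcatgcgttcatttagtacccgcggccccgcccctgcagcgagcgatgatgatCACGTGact

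Both strands of the 250 bases before each RefSeq start were searched for TGGGAA, the core of the motif of RBPJ (the DNA-binding partner of Notch), for the E-box CACGTG and for the FOXO motif GTAAACA. Of 32851 such promoters 21.6%, 6.02% and 3.17% held them. The Bid promoter held none of these letters. Of the 15 promoters listed for 9 members, 3 held TGGGAA (both of Bad and that of Bax), 2 held CACGTG (1 of Bbc3 and that of Bax) and 2 held GTAAACA (1 of Bcl2l11 and 1 of Bbc3). Pmaip1 was left out of this list. These matches describe the letters only.

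By root mean square difference over the 12 libraries, each gene centred on its own mean of log2(FPKM + 1), the genes nearest to Bid among 8975 candidates were Pkn3 (0.0626), Macrod1 (0.0651) and Ecsit (0.0658), where the SD of Bid itself was 0.237. Pkn3 encodes a protein kinase, Macrod1 an ADP-ribosyl hydrolase of mitochondria and Ecsit a factor of mitochondrial complex I assembly. Pkn3 averaged 15.7 FPKM in Notch1+Zmiz1, 17.9 in Notch1, 12.6 in Zmiz1 and 13.9 in control libraries. These 3 genes were chosen for the likeness, so their values are a description.

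**Figure D3:**
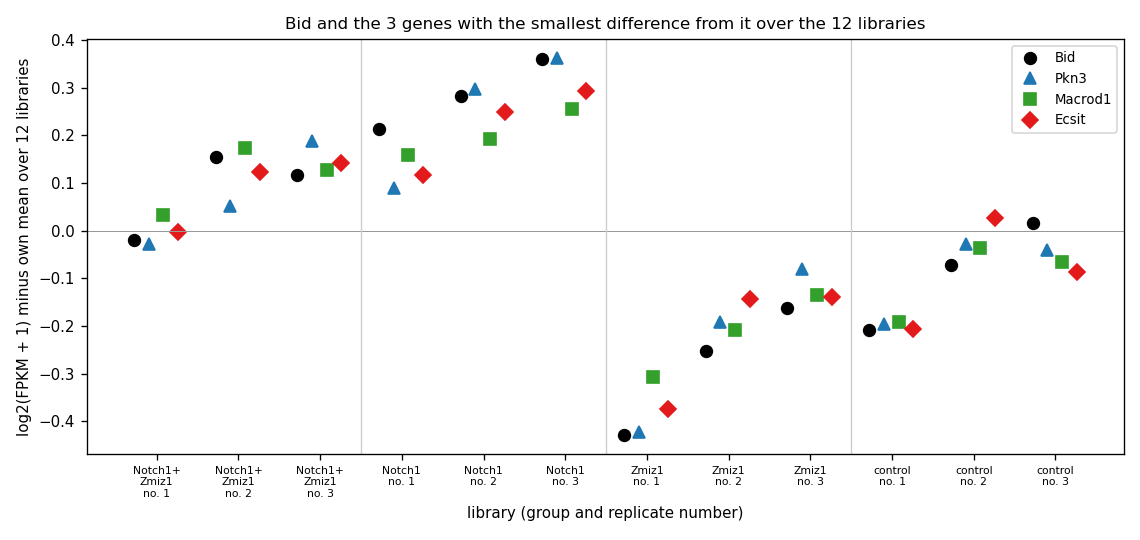
Log2(FPKM + 1) minus the gene's own mean over the 12 libraries (y axis) for Bid, Pkn3, Macrod1 and Ecsit in each library (x axis). All 4 genes have their highest group mean in Notch1 libraries and their lowest in Zmiz1 libraries.

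Of the other BH3-only members above the filter, Bcl2l11 and Bbc3 spread most, and neither was called in any comparison. Bcl2l11, on chromosome 2 (128126038 to 128162547, plus strand), encodes BIM, which binds all anti-apoptotic members. It had 30.6, 35.3 and 25.1 FPKM in Zmiz1 libraries, against 24.6, 21.0 and 20.9 FPKM in control libraries. The Zmiz1 values lay above all control values, as for 8.75% of tested genes in that direction, and the highest was that of Zmiz1 library 2, the one of lowest depth. The log2 change was 0.43 (SE 0.129, 95% interval 0.14 to 0.71, adjusted p = 0.157 in limma). In Notch1+Zmiz1 libraries it had 28.8, 23.7 and 24.9 FPKM and in Notch1 libraries 26.7, 22.4 and 21.3 FPKM. Notch1 against Zmiz1 gave -0.35 (-0.64 to -0.06, adjusted p = 0.117). That difference was called without Zmiz1 library 3 (-0.47, adjusted p = 0.0379) and with the libraries numbered 1 as a term (adjusted p = 0.0459). The ratio of Bcl2l11 to Bid FPKM was 1.54 ± 0.328 in Zmiz1 libraries and 0.98 ± 0.173 in control libraries. It was 1.01 ± 0.173 in Notch1+Zmiz1 libraries and 0.791 ± 0.138 in Notch1 libraries. The Zmiz1 and control ranges of this ratio overlapped, with 1.164 in Zmiz1 library 3 and 1.177 in control library 1.

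Bbc3, on chromosome 7 (16308393 to 16318205, plus strand), encodes PUMA, a target of p53 and FOXO3. It had 24.4, 26.2 and 26.3 FPKM in Notch1+Zmiz1 libraries and 22.6, 27.7 and 28.2 FPKM in Notch1 libraries. It had 26.8, 23.3 and 32.1 FPKM in Zmiz1 libraries and 29.5, 33.7 and 34.0 FPKM in control libraries. Both groups with Notch1 lay below all control values, as for 13.5% of tested genes in Notch1+Zmiz1 and 10.3% in Notch1 against control. The log2 change was -0.32 (SE 0.116, 95% interval -0.58 to -0.07, adjusted p = 0.149) in Notch1+Zmiz1 and -0.30 (-0.56 to -0.05, adjusted p = 0.184 in limma) in Notch1 against control. Fitted on those 6 libraries alone, Notch1+Zmiz1 against control was called (adjusted p = 0.0303). That fit called 1386 of the 10152 tested genes, where the model of the 4 groups called 656. Zmiz1 against control gave -0.24 (-0.50 to 0.01, adjusted p = 0.43). Bad, on chromosome 19 (6941861 to 6951899, plus strand), binds BCL2 and BCL-XL when it is not phosphorylated. It kept between 13.8 and 18.1 FPKM in all libraries, and its largest log2 change was 0.17 in Notch1 against control (-0.04 to 0.38, adjusted p = 0.38).

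Among the anti-apoptotic genes, Bcl2l1 varied least of all members. Bcl2l1, on chromosome 2 (152780668 to 152831728, minus strand), had 131.6, 141.4 and 137.2 FPKM in Notch1+Zmiz1 libraries and 137.3, 146.7 and 144.4 FPKM in Notch1 libraries. It had 141.5, 154.3 and 146.5 FPKM in Zmiz1 libraries and 134.2, 135.0 and 137.8 FPKM in control libraries. Over the 6 pairwise comparisons its 95% intervals kept any change between 0.856-fold and 1.18-fold, and the lowest adjusted p was 0.353. The Zmiz1 values were all above the control values, as for 8.75% of tested genes, with a log2 change of 0.12 (0.0028 to 0.23, adjusted p = 0.373). Its direction in Notch1+Zmiz1 against control (0.01) turned under median ratio scaling (-0.01) and quantile normalization (-0.06).

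Mcl1, on chromosome 3 (95658788 to 95663176, plus strand), encodes a short-lived protein. It had 143.7, 127.5 and 125.0 FPKM in Notch1+Zmiz1 libraries and 158.0, 130.7 and 139.9 FPKM in Notch1 libraries. It had 158.5, 177.2 and 137.4 FPKM in Zmiz1 libraries and 169.3, 143.9 and 145.0 FPKM in control libraries. Notch1+Zmiz1 libraries held the lowest mean, 132.0 ± 10.1 FPKM, against 152.7 ± 14.4 FPKM in control libraries, with a gap of under 1 FPKM between the nearest values, and 13.5% of tested genes lay wholly below control in this comparison. The log2 change was -0.21 (-0.45 to 0.03, adjusted p = 0.344 in limma), and that of Notch1+Zmiz1 against Zmiz1 was -0.25 (-0.49 to -0.01, adjusted p = 0.292). Over the 6 pairwise comparisons the intervals allowed changes between 0.712-fold and 1.22-fold. The ratio of Bcl2l1 to Mcl1 FPKM was 1.04 ± 0.108 in Notch1+Zmiz1, 1.01 ± 0.128 in Notch1, 0.943 ± 0.107 in Zmiz1 and 0.894 ± 0.088 in control libraries, and these ranges overlapped.

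Neither effector was called. Bax, on chromosome 7 (45461697 to 45466898, minus strand), had 77.2, 94.5 and 90.9 FPKM in Notch1+Zmiz1 libraries and 64.6, 75.6 and 94.8 FPKM in Notch1 libraries. It had 84.8, 91.6 and 97.7 FPKM in Zmiz1 libraries and 75.5, 91.3 and 86.4 FPKM in control libraries. The Notch1 libraries covered nearly the whole range of the gene, and the intervals over the 6 pairwise comparisons ran between 0.693-fold and 1.38-fold, with a lowest adjusted p of 0.295. Bak1, on chromosome 17 (27019810 to 27029009, minus strand), had 47.9, 56.9 and 55.7 FPKM in Notch1 libraries and 47.3, 46.2 and 49.2 FPKM in Zmiz1 libraries. That difference was 0.16 on the log2 scale (0.01 to 0.32, adjusted p = 0.171 in limma) and was called without Notch1 library 1 (0.24, adjusted p = 0.0301). In Notch1+Zmiz1 libraries Bak1 averaged 52.2 ± 2.20 FPKM and in control libraries 50.5 ± 1.74 FPKM. The ratio of Bax to Bak1 FPKM was 1.68 ± 0.157 in Notch1+Zmiz1, 1.46 ± 0.211 in Notch1, 1.92 ± 0.110 in Zmiz1 and 1.67 ± 0.105 in control libraries.

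Summed by role, anti-apoptotic transcripts reached 269.1 ± 6.55 FPKM in Notch1+Zmiz1 libraries, 285.9 ± 9.05 in Notch1, 305.4 ± 24.2 in Zmiz1 and 288.6 ± 13.2 in control libraries. BH3-only transcripts reached 92.1 ± 0.646 FPKM in Notch1+Zmiz1, 96.1 ± 3.75 in Notch1, 93.2 ± 3.31 in Zmiz1 and 92.0 ± 2.61 in control libraries. The ranges of the BH3-only sums overlapped between all groups. The 3 anti-apoptotic sums of the Notch1+Zmiz1 libraries were below those of all other libraries by a narrow gap. The nearest values were 275.6 FPKM in Notch1+Zmiz1 library 1 and 277.7 FPKM in Notch1 library 2. Neither Mcl1 nor Bcl2l1, which make up nearly all of this sum, was called, and how often sums of other genes separate so was not counted. These sums were not tested. The ratio of anti-apoptotic to all pro-apoptotic FPKM was 1.16 ± 0.0776 in Notch1+Zmiz1, 1.26 ± 0.161 in Notch1, 1.32 ± 0.126 in Zmiz1 and 1.28 ± 0.131 in control libraries, with overlapping ranges. Transcript sums say nothing of protein amounts, cleavage or phosphorylation.

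Several members varied with the library number within groups. Bid, Bax and Bcl2l1 were lowest in library 1 in 4 of 4 groups, a pattern shared by 14.5% of tested genes. Library 1 deviated from its group mean by -10.5% to -5.17% for Bid and by -17.5% to -7.19% for Bax. Mcl1 and Bcl2l11 were highest in library 1 in 3 of 4 groups, as were 26.7% of tested genes in at least 3 groups, and the exception in both was the Zmiz1 group, where library 2 was highest. Bbc3 and Bad were lowest in library 1 in 3 of 4 groups, where 34.9% of tested genes were lowest in at least 3. Each group held 1 library numbered 1, so this spread lies within the groups.

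**Figure D4:**
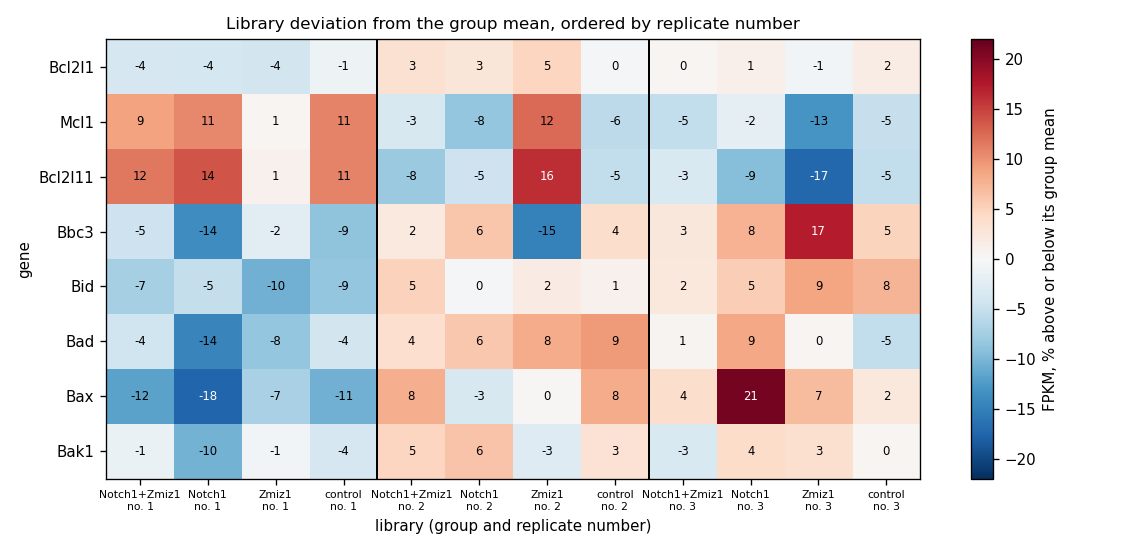
FPKM of the 8 genes at a mean of at least 1 FPKM in each library, as a percentage above (red) or below (blue) the group mean, with libraries ordered by their number. Bid, Bax and Bcl2l1 are below the group mean in all 4 libraries numbered 1.

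The wider apoptosis machinery was read from 7 lists of related genes. The lists were chosen with earlier results of these data known, so their counts and medians beside those of all tested genes are a description. Of 8 other BCL2-family and BNIP genes at a mean of at least 1 FPKM, 1 rose and none fell in Notch1 against control, and 2 rose and 1 fell in Notch1 against Zmiz1, where limma called 5.49% and 10.9% of all tested genes. Bnip3, a mitophagy receptor of the outer mitochondrial membrane, was the one that rose in both. It had 22.7, 19.3 and 20.1 FPKM in Notch1 libraries, against 7.52, 7.85 and 7.15 FPKM in control libraries, a log2 change of 1.35 (SE 0.149, adjusted p = 0.000421 in limma). In Notch1+Zmiz1 libraries it had 6.65, 5.62 and 6.61 FPKM, and the log2 change against Notch1 libraries was -1.57 (adjusted p = 0.000292). In Zmiz1 libraries it had 7.05, 4.11 and 4.31 FPKM, and Notch1 against Zmiz1 gave 1.85 (adjusted p = 2.3e-05). These 3 calls of Bnip3 held in all 21 alternatives. Its interaction was -1.08 on the log2 scale and was not called (adjusted p = 0.305).

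Bmf, a BH3-only gene, averaged 0.919 ± 0.114 FPKM in Notch1+Zmiz1, 1.42 ± 0.170 in Notch1, 0.777 ± 0.0518 in Zmiz1 and 1.48 ± 0.129 in control libraries. Its log2 change in Notch1 against Zmiz1 was 0.44 (adjusted p = 0.00794 in limma) and held in all 20 alternatives that tested it, the filter at 5 FPKM leaving it out. It fell in Zmiz1 against control (-0.48, adjusted p = 0.0186) and in Notch1+Zmiz1 against control (-0.37, adjusted p = 0.0297). The first was lost without control 2 (0.0672) or control 3 (0.1). The second was lost without control 1 (0.053), control 2 (0.0842), control 3 (0.124) or Notch1+Zmiz1 1 (0.0924) or 2 (0.108). Without the 4 libraries numbered 1 both were lost, at 0.135 and 0.124. Bcl2l13 fell in Notch1 against Zmiz1 (-0.37, adjusted p = 0.0445), a call lost in 10 of 12 fits that left out 1 library (adjusted p between 0.0211 and 0.148) and kept only without Zmiz1 3 or Notch1 1.

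Downstream of the mitochondrion, 3 of 13 apoptosome and caspase genes rose and none fell in Notch1 against Zmiz1, with a median log2 change of 0.13 where all tested genes had 0.03 and 10.9% of them were called. They were Endog, a mitochondrial nuclease, with 2.46 ± 0.131 FPKM in Notch1 and 1.65 ± 0.136 FPKM in Zmiz1 libraries (log2 change 0.38, adjusted p = 0.0155), the executioner caspase gene Casp6 (0.37, adjusted p = 0.0186) and Diablo, whose product SMAC blocks inhibitors of apoptosis (0.33, adjusted p = 0.0264 in limma). Casp6 lost its call without Notch1 2 (0.0503) or Notch1 3 (0.0628), and Diablo without Zmiz1 2 (0.0649), Zmiz1 3 (0.0503), Notch1 1 (0.0692) or Notch1 3 (0.0928). Over all 21 alternatives Casp6 lost it in 4 and Diablo in 7 (adjusted p up to 0.156 and 0.186). Endog lost its call only in the fit of the 6 libraries compared (0.0594). Endog also rose in Notch1+Zmiz1 against Zmiz1 (0.43, adjusted p = 0.0167), a call lost without Notch1+Zmiz1 2 (0.0855) or 3 (0.0675). Of 5 inhibitors of apoptosis and of 10 genes of the death receptor route, through which BID is cut, none was called by limma in any comparison. Between 0 and 2 genes of each of these lists had an unadjusted p under 0.05 in a comparison. Of the 10152 tested genes between 332 (interaction) and 2633 (Notch1 against Zmiz1) had such a p.

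Among genes that turn over MCL1 or modify BAD or BIM, Gsk3a, 1 of the kinases that mark MCL1 for degradation, rose in Notch1 against Zmiz1. It averaged 104.7 ± 7.63 FPKM in Notch1 and 70.0 ± 8.06 FPKM in Zmiz1 libraries, a log2 change of 0.58 (adjusted p = 0.00168 in limma) that held in all 21 alternatives. Against control, Ppp3ca, the calcineurin catalytic subunit, fell to 10.2 ± 0.522 FPKM in Notch1+Zmiz1 libraries, where control libraries had 13.4 ± 0.499 (-0.36, adjusted p = 0.00867). Dynll2, the dynein light chain that tethers BMF, rose in the same comparison (0.35, adjusted p = 0.00526). Both calls held with any 1 library left out and were lost without the 4 libraries numbered 1 (0.176 and 0.108).

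Of 18 transcription factor genes known to act on the members, 2 rose in Notch1+Zmiz1 against control and none fell, where 6.46% of all tested genes were called. They were Atf4, of the integrated stress response, with 98.1 ± 3.20 FPKM in Notch1+Zmiz1 and 71.4 ± 2.77 FPKM in control libraries (0.45, adjusted p = 0.00205 in limma), and E2f1, with 40.3 ± 0.742 FPKM in Notch1+Zmiz1 and 32.0 ± 1.81 FPKM in control libraries (0.33, adjusted p = 0.034). The call of Atf4 held with any 1 library left out and was lost without the 4 libraries numbered 1 (0.0637). That of E2f1 was lost in 7 of 12 such fits (adjusted p between 0.0201 and 0.13), namely without any 1 control or Notch1+Zmiz1 library or without Notch1 2. In Notch1 against Zmiz1, Ikzf1, encoding the T cell factor Ikaros, fell (-0.39, adjusted p = 0.00466) and Nfkb1 rose (0.21, adjusted p = 0.0448). Ikzf1 kept its call with any 1 library left out, and Nfkb1 lost it in 10 of 12 (adjusted p between 0.0369 and 0.111), all but those without Zmiz1 2 or Zmiz1 3. Over all 21 alternatives Ikzf1 lost it in 1 (0.0679) and Nfkb1 in 13 (up to 0.235). Of 11 mitochondrial partners, the channel gene Vdac3 fell (-0.47, adjusted p = 0.00451) and Bcap31 rose (0.25, adjusted p = 0.0211) in Notch1 against Zmiz1, which called 10.9% of all tested genes. Vdac3 kept its call with any 1 library left out, while Bcap31 lost it without Notch1 3 (0.0544). Over all 21 alternatives Vdac3 lost it in 1 (0.0822) and Bcap31 in 3 (up to 0.152).

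Other calls in these lists were less stable. In Notch1 against control, Endog rose by 0.34 on the log2 scale, a call kept only without Zmiz1 1 or Zmiz1 2 among the 12 fits that left out 1 library (adjusted p between 0.0251 and 0.143). Gsk3a rose by 0.34, kept only without Zmiz1 2, Zmiz1 3 or Notch1 1 (between 0.0142 and 0.149), and E2f1 rose by 0.33, kept only without Notch1 1 or any 1 Zmiz1 library (between 0.0201 and 0.132). Atf4 rose by 0.31, lost without control 1 (0.0841) or control 2 (0.102). Ppp3ca fell in Notch1 against control (-0.32), lost without control 1 (0.0786), control 2 (0.0742), Notch1 1 (0.0531) or Notch1 3 (0.0548). It fell in Zmiz1 against control too (-0.34), lost without control 1 (0.115), control 2 (0.12), control 3 (0.0862) or Zmiz1 1 (0.0647). Dynll2 rose by 0.27 in Zmiz1 against control, kept only without Notch1 1, Notch1 3 or Notch1+Zmiz1 2 (between 0.0409 and 0.195). In Notch1+Zmiz1 against control Endog rose by 0.39, lost without control 1 (0.0728), control 2 (0.0602) or Notch1+Zmiz1 2 (0.087) or 3 (0.071). In Notch1+Zmiz1 against Notch1 no gene of these lists above the filter was called except Bnip3.

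**Figure D5:**
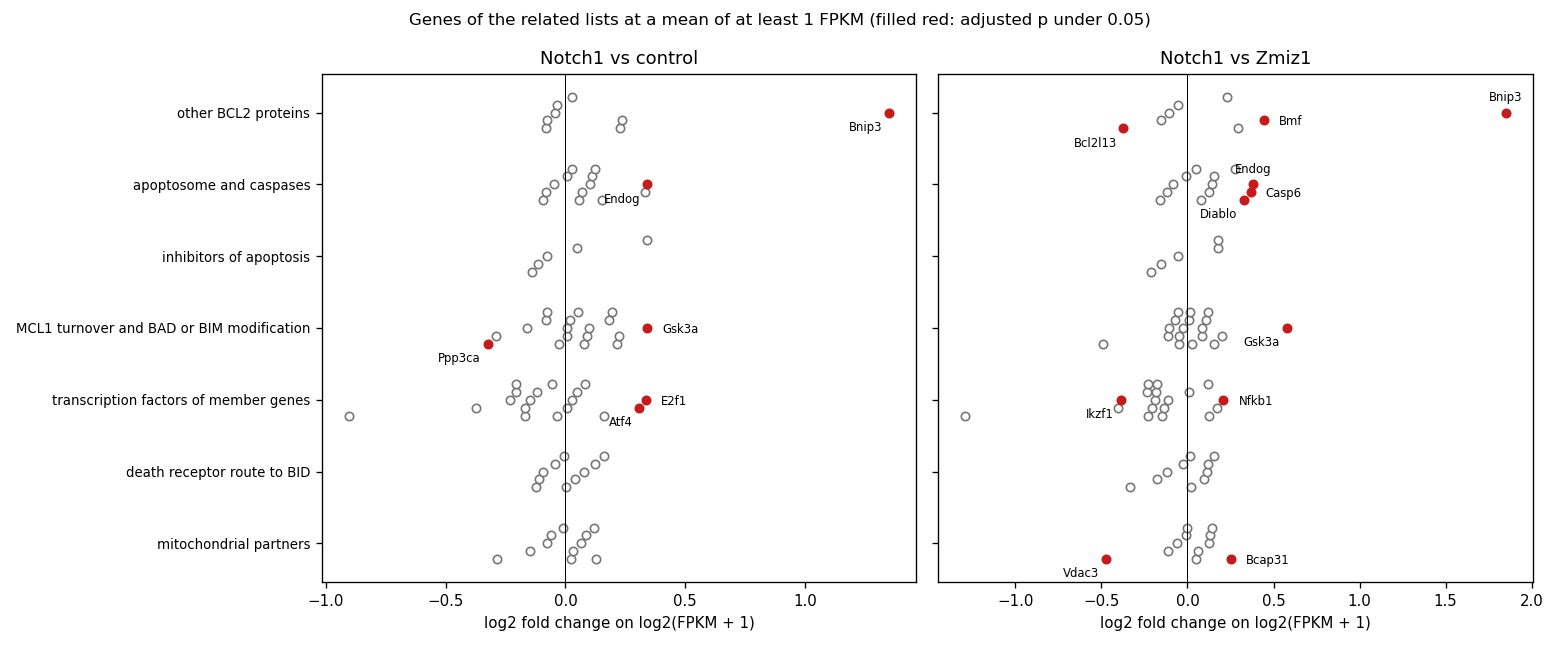
Log2 fold change on log2(FPKM + 1) (x axis) of the genes at a mean of at least 1 FPKM in the 7 related lists, in Notch1 against control (left) and Notch1 against Zmiz1 (right). Each point is a gene (1 gene of the lists is not shown), filled red at an adjusted p under 0.05, and Bnip3 has the largest change in both panels.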

How the data were processed

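RNA of 12 libraries of line 8946 (4 groups of 3) was sequenced from TruSeq mRNA v2 libraries, a kit that keeps no strand, per the labels' protocols. The authors deposited 1 FPKM value per gene symbol and library. The submitters' processing notes name FastQC 0.10.0, TopHat2 2.0.9, Bowtie2, Cufflinks, Cuffdiff 2.1.1 and the build mm10. The annotation and any scaling inside these tools are not given in the sources used here. Without counts, the precision of single values is unknown.

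The deposited values were analysed on the log2(FPKM + 1) scale, which understates changes of low genes. limma 3.58.1 (R 4.3.3) fitted 4 group means with an intensity trend. Permuting 3 against 3 libraries exactly gives no p below 0.1, so calls rest on the variance shared across genes. The members and the related lists were chosen with earlier results of these data known. Genes named were the 10 members, up to 4 called genes per list with the largest change, the vector genes and the 3 genes nearest to a member called in at least 2 comparisons. Positions come from GENCODE M21 (GRCm38, the same assembly as mm10), matched for 10 of 10 members. Alternatives were a pseudocount of 0.1, no filter or one at 5 FPKM, scaling by median ratios or by quantiles, the library number as a block, fits of the compared groups alone, each library left out, and, chosen after seeing the data, the fits without the 4 libraries numbered 1 or with them as a term. One gene that the rule names is left out of the text. The pipeline was tested on simulated data. Figures used Python 3.11.15 and matplotlib 3.10.9.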

Additional observations from a re-analysis of the deposited data

How the results depend on the processing

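Main counts of called members changed under some alternatives. In Notch1+Zmiz1 against control the count of 0 became 1 with the replicate block (Bid higher, adjusted p = 0.0358), with the libraries numbered 1 as a term (Bid, 0.038) and in a fit of the compared groups alone (Bbc3 lower, 0.0303). In Zmiz1 against control 0 became 1 with the replicate block (Bid lower, 0.0495) and with the libraries numbered 1 as a term (0.0487). In Notch1 against control 1 became 0 in a fit of those groups alone (Bid, 0.0566) and without the 4 libraries numbered 1 (0.0763), and lay between 0 and 1 with 1 library left out. In Notch1+Zmiz1 against Zmiz1 1 became 0 with no filter (Bid, 0.0539), in a fit of those groups alone (0.153) and without the 4 libraries numbered 1 (0.0973), and lay between 0 and 1 with 1 library left out. In Notch1 against Zmiz1 1 became 2 with the replicate block (Bcl2l11 lower, 0.0442) and with the libraries numbered 1 as a term (0.0459), and lay between 1 and 2 with 1 library left out. Of the 10152 tested genes the replicate block called 1158 in Notch1+Zmiz1 against control, 365 in Zmiz1 against control and 1843 in Notch1 against Zmiz1. The main fit called 656, 214 and 1109. Fits of the compared groups alone called 1386 in Notch1+Zmiz1 against control, 424 in Notch1 against control and 155 in Notch1+Zmiz1 against Zmiz1. There the main fit called 656, 557 and 392. The causes were not tested. Notch1+Zmiz1 against Notch1 and the interaction had 0 under every alternative run, and no called value changed sign. The library numbers were not taken as pairs, since 6 of 18 same-numbered pairs, not all, had deviations correlated over 0.1 (range -0.176 to 0.267). However, 9 of 12 libraries were closest to their own number. Among the libraries numbered 1 the correlations were 0.267, 0.157, 0.112, 0.101, 0.0447 and -0.044. The main fit had no term for these libraries, so what set them apart counted there as spread within groups. Genes under a mean of 5 FPKM had no value under the filter at 5 FPKM. Without counts the depth behind Bcl2 and Pmaip1 is unknown.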
